A study of Mus musculus and Homo sapiens with 23 samples.

Results

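The genes described here encode the machinery that copies DNA and supplies its nucleotides: 49 mouse genes in 7 roles, among 21598 genes with a usable value. The 49 were chosen by name, with earlier results of these data known. They were read in 2 RNA libraries of BV2 cells, a line of mouse microglia immortalised with a retrovirus that carries the oncogenes v-raf and v-myc, and therefore a dividing stand-in for cells that divide little in the healthy brain. One library came from BV2 cells given lipopolysaccharide (LPS, a component of the outer membrane of Gram-negative bacteria) for 3 h, and the other from unstimulated BV2 cells. The labels name no other treatment or genotype for either library, and the sources used here give neither the LPS dose nor the medium of these cultures. The series follows the histone mark H2BK20ac through cell types and through this change of state, and its other 21 samples (chromatin immunoprecipitation and input) were not analysed here.

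A cell copies its genome once per cycle. In G1 the origin recognition complex, Cdc6 and Cdt1 load the Mcm2 to Mcm7 ring onto DNA, a step called licensing that geminin blocks once S phase has begun. Cdc45 and the GINS complex then turn the ring into a moving helicase, primase and polymerases copy both strands, and ribonucleotide reductase, thymidylate synthase and thymidine kinase provide deoxynucleotides. Many of these genes are transcribed at the G1 to S transition under E2F transcription factors. Cyclin-dependent kinase activity, of which that of cyclin E is a part, releases these factors from the retinoblastoma protein. Activated macrophages are known to leave the cell cycle.

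Levels are FPKM (fragments per kilobase of transcript, scaled to the sequenced total, so comparable between genes per length), with the deposited 95% interval in parentheses. Changes are log2(FPKM + 1) of LPS minus unstimulated, and a gene was called lower at -1 or below and higher at 1 or above. With 1 library in each group, no difference has a replicate check, and each compares these 2 libraries rather than the conditions. Implied fragments, read from the intervals, summed to 16910000 in the LPS library and 13790000 in the unstimulated library. The 36 genes of the set with 1 transcript row and a value above 0 rested on 64 to 4588 fragments in the LPS library and 192 to 8830 in the unstimulated library. All 9 microglia and macrophage markers with a value were above 1 FPKM in at least 1 library (summed FPKM 6054 after LPS and 6200 unstimulated, with 1 of 9, Spi1, called higher). Of 30 markers of lymphocytes, vessel and connective tissue cells, oligodendrocytes, astrocytes and neurons, 4 reached 1 FPKM and 0 were called either way.

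Replication genes were lower after LPS across all 7 roles. Of the 49 genes, 48 were counted (at least 1 library with an FPKM of 1 or above), 35 were called lower and 0 were called higher. With a pseudocount of 5 in place of 1, 21 were called lower. Over all 10035 counted genes, 12.4% were called lower and 8.54% higher. The median change of the 48 was -1.26, against -0.24 over all counted genes, and the median ratio of LPS to unstimulated FPKM was 0.387, against 0.817. All 48 changes were below 0, as were 64.2% of those of all counted genes, though Rfc3 and Pola2 lay above 0 with the libraries scaled to a median ratio of 1 and Orc3 with its highest row alone. The deposited intervals were separate and lower for 46 of the 48, against 48.5% of all counted genes, the exceptions being Rfc3 and Pola2. Within a mean FPKM of 5 to 100, a range chosen after the values were seen, 28 of 38 members (73.7%) were called lower, against 11.5% of all genes there, and 0 were called higher, against 9.90%. Together the set held 0.117% of the summed FPKM in the LPS library and 0.323% in the unstimulated library. In bulk RNA, a smaller share of cells in S phase and less of each transcript per cell cannot be told apart.

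**Figure D1:**
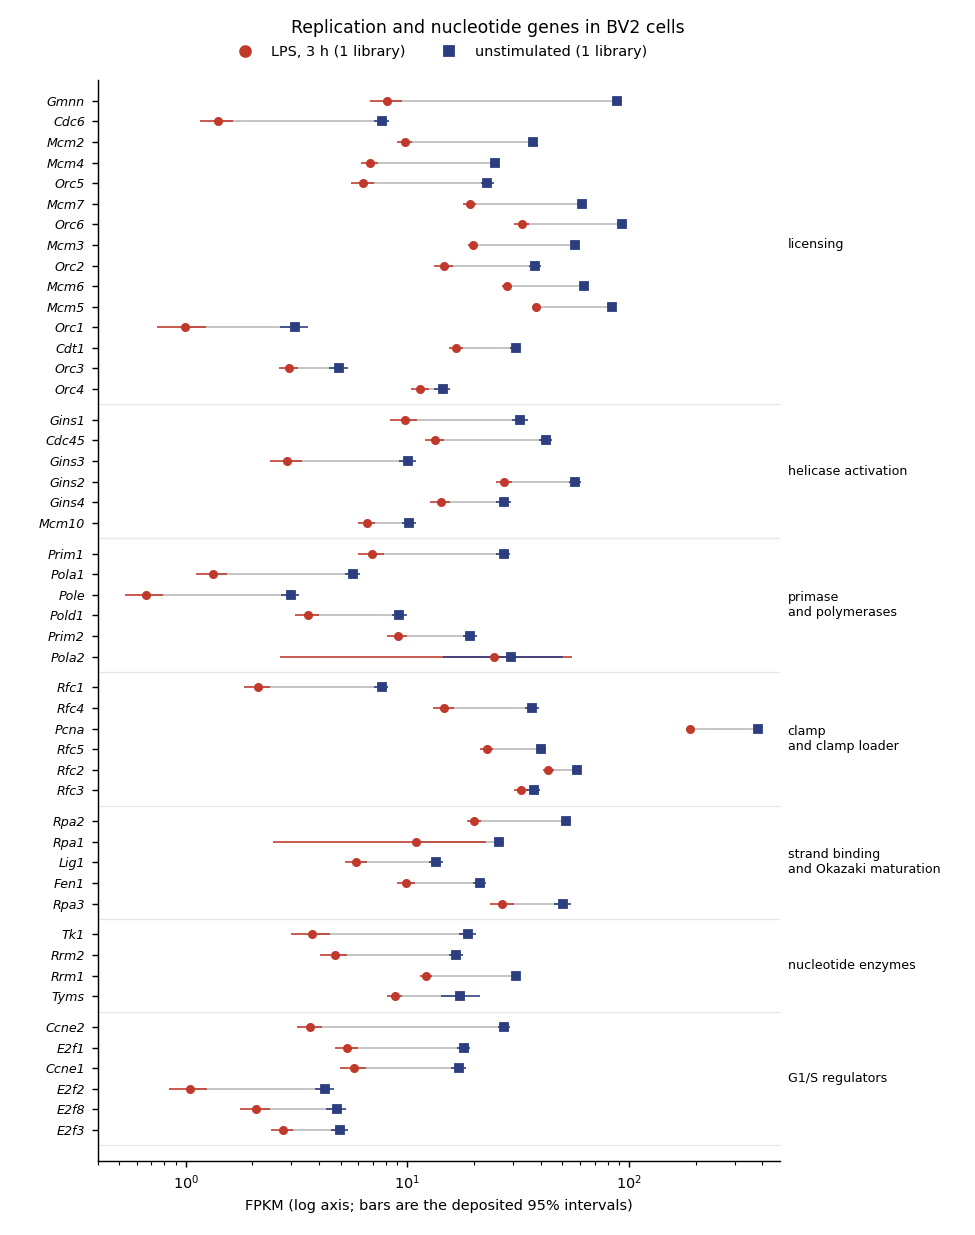
FPKM on a log axis for the 48 counted genes by role, with the LPS library as circles and the unstimulated library as squares; bars are the deposited 95% intervals. Every circle lies left of its square, and the bars overlap for Rfc3 and Pola2 only.

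The order of the genes by level was largely kept between the libraries (Spearman's rho 0.897 across 48 genes of the same 2 libraries, which are not independent replicates). Pcna was the most abundant in both. Of the 48, 21 were at 10 FPKM or more in the LPS library and 38 in the unstimulated library. The genes at 2 FPKM or less numbered 5 after LPS, namely Orc1, Cdc6, Pola1, Pole and E2f2, and 0 in unstimulated cells.

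**Figure D2:**
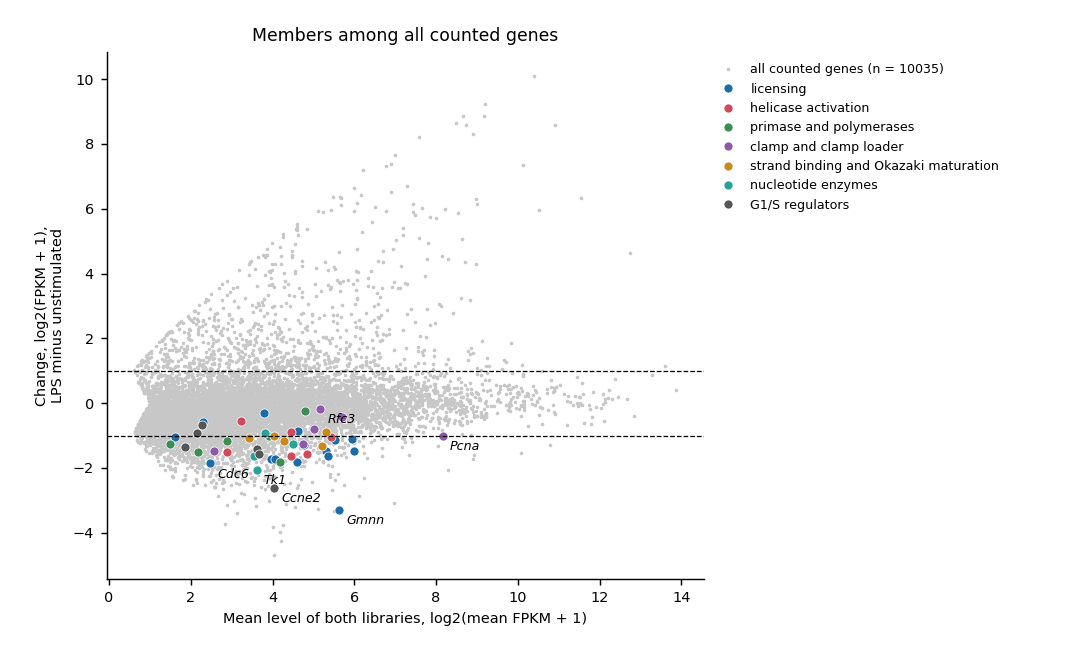
Change on the log2(FPKM + 1) scale against the mean level of both libraries for 10035 counted genes (grey) and the 48 counted replication genes (coloured by role); dashed lines mark the size rule. Coloured points lie below 0 at every level, from Orc1 and Pole at the low end to Pcna at the high end, and Gmnn is the lowest of them.

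Promoter windows are shown because 35 of the genes were lower together and E2F factors are known to act at such genes. RefSeq windows of build GRCm38.p6, from 250 bases before to 50 after the annotated start, were found for 40 of the 49 genes. They were searched on both strands for 4 words of the E2F type, TTTCCCGC, TTTCGCGC, TTTGCCGC and TTTGGCGC, which can overlap each other in opposite orientations. A match stood in 16 of the 40 genes (40.0%), against 2.60% of all 27025 genes with a window and 5.16% of the 8038 counted ones. The 16 were Orc1, Orc3, Cdc6, Cdt1, Mcm3, Mcm5, Mcm6 and Mcm7 among licensing genes, then Gins3, Pola1, Pold1, Rfc3, Lig1, E2f2, E2f3 and E2f7. Below are the 250 bases upstream of the start, 5′ to 3′, for 3 genes called lower with upstream matches and for Rfc3, which holds matches and changed least; capitals mark the matches. A match is a description of the letters, not evidence of binding.
Cdc6 (chr11:98907901-98908150, + strand): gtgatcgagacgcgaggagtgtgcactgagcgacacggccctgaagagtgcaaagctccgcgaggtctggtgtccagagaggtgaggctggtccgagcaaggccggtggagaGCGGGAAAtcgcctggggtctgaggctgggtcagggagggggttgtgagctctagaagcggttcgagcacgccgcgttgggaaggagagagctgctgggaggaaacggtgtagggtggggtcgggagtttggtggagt
Mcm7 (chr5:138171884-138172133, - strand): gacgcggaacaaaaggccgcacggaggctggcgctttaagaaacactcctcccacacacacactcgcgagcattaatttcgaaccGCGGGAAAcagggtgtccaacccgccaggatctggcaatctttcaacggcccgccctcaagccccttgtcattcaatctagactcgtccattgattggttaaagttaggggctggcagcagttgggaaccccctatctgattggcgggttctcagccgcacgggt
Mcm6 (chr1:128359706-128359955, - strand): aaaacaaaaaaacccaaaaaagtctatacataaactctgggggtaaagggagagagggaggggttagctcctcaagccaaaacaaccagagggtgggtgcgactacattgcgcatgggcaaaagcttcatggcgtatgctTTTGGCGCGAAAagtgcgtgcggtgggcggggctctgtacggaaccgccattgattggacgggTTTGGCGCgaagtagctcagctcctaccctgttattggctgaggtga
Rfc3 (chr5:151651209-151651458, - strand): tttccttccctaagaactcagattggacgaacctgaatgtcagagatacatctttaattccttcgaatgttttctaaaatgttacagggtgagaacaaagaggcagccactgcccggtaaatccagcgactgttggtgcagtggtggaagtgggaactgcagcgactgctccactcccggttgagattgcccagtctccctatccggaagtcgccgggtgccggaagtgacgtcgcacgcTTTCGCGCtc

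In the distal stretch of Mcm6, words on opposite strands overlap to form the longer run in capitals. Cdc6 and Mcm7 carry their upstream matches on the opposite strand, at -138 to -131 and at -165 to -158 from the start. Mcm7 has a further match after the start, and Rfc3 one that begins at the start itself, and neither is shown. Holding a match did not go with a larger change: of the 15 counted genes with a match, 11 were called lower, with a median change of -1.13, and of the 24 counted genes with a window and no match, 17 were called lower, with a median of -1.29. The CCAAT box (the letters CCAAT) stood in 26 of the 40 genes (65.0%), against 41.1% of all genes and 43.1% of counted genes. The GC box (GGGCGG) stood in 31 of the 40 (77.5%), against 38.2% of all genes and 70.1% of counted genes. The GC box is thus common among expressed genes in general.

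Licensing genes had a median change of -1.47, with 12 of 15 called lower. Nucleotide enzymes were close to this at -1.45, and which role had the largest median differed between ways of processing. Gmnn, which encodes geminin, the protein that binds Cdt1 and prevents relicensing (mm9 chromosome 13, 24843714 to 24853806), was at 8.13 FPKM (6.78 to 9.48) after LPS and 88.3 FPKM (83.7 to 92.8) unstimulated. Its ratio of 0.0921 (0.0777 to 0.109) was the lowest of the set, and its change of -3.29 ranked 9 from the bottom among all 10035 counted genes. Cdt1, the loader that geminin inhibits, was at 16.7 FPKM (15.5 to 17.9) after LPS and 30.8 FPKM (29.1 to 32.5) unstimulated, a change of -0.85 that missed the size rule although the intervals were separate. The FPKM of Gmnn over that of Cdt1 was therefore 0.488 (0.409 to 0.583) in the LPS library and 2.87 (2.66 to 3.08) in the unstimulated library, so the transcript of the inhibitor was the rarer of the pair after LPS and the commoner in unstimulated cells. Cdc6, the ATPase that loads the Mcm ring together with Cdt1, was at 1.39 FPKM (1.16 to 1.63) after LPS and 7.66 FPKM (7.09 to 8.22) unstimulated. Its ratio of 0.182 (0.152 to 0.218) was the lowest among the loading factors, and with a pseudocount of 5 its change was -0.99.

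All 6 genes of the Mcm2 to Mcm7 ring were called lower, by -1.81 to -1.11. With the libraries scaled to a median ratio of 1, 4 of the 6 were called, and Mcm5 (-0.83) and Mcm6 (-0.85) were not. The proteins assemble in equal numbers, but the transcripts did not stand at equal levels. Mcm5 was the highest in both libraries, at 38.1 FPKM (36.7 to 39.5) after LPS and 83.5 FPKM (81.4 to 85.7) unstimulated. Mcm4 was the lowest in both, at 6.77 FPKM (6.18 to 7.36) after LPS and 24.7 FPKM (23.6 to 25.9) unstimulated. The highest subunit exceeded the lowest 5.62-fold in the LPS library and 3.38-fold in the unstimulated library. The other 4 stood at 9.76 to 28.0 FPKM after LPS and 36.8 to 62.6 FPKM unstimulated, and the 6 fell by different amounts. Mcm2, Mcm4 and Mcm7 had ratios of 0.265 (0.244 to 0.288), 0.274 (0.249 to 0.302) and 0.310 (0.288 to 0.333), and Mcm3 had a ratio of 0.349 (0.327 to 0.372). Mcm5 and Mcm6 kept more, with ratios of 0.456 (0.436 to 0.477) and 0.448 (0.423 to 0.474). The intervals of Mcm5 and Mcm6 overlap each other and none of the other 4.

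The origin recognition complex did not move as a block. Orc5 (ratio 0.275, 0.241 to 0.315) and Orc6 (0.353, 0.324 to 0.385) were called lower, as were Orc2 (0.388, 0.347 to 0.435) and Orc1 (0.317, 0.239 to 0.421). Orc1, whose protein is known from human cells to be the cell-cycle-regulated subunit, was the rarest, at 0.988 FPKM (0.741 to 1.23) after LPS and 3.11 FPKM (2.66 to 3.56) unstimulated. At that level the call depends on the processing, and with a pseudocount of 5 the change of Orc1 was -0.44. It was -0.90 with the libraries scaled to a median ratio of 1 and -0.70 after quantile normalisation. Orc6, the smallest subunit, was the most abundant, at 32.9 FPKM (30.4 to 35.3) after LPS and 93.2 FPKM (88.9 to 97.4) unstimulated. Orc3 and Orc4 were not called: Orc3 stood at 2.93 FPKM after LPS and 4.91 FPKM unstimulated, and Orc4 at 11.4 FPKM after LPS and 14.4 FPKM unstimulated. The value of Orc3 depends on summing its transcripts. Row NM_015824 was at 0.000247 FPKM (0 to 0.0144) after LPS and 2.40 FPKM (2.07 to 2.73) unstimulated, and row NM_001159563 at 2.93 FPKM (2.64 to 3.22) after LPS and 2.51 FPKM (2.18 to 2.85) unstimulated. These rows share a locus, and how Cufflinks split fragments between them was not tested. The locus of Orc5 shares 810 bases with that of Gm15421, at 28.3 FPKM after LPS and 36.2 FPKM unstimulated, so part of its reads could belong to either. Among the 49, Orc3, Orc4, Gins2, Rfc4, Lig1, Tk1 and Ccne2 also share bases with a neighbouring gene.

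**Figure D3:**
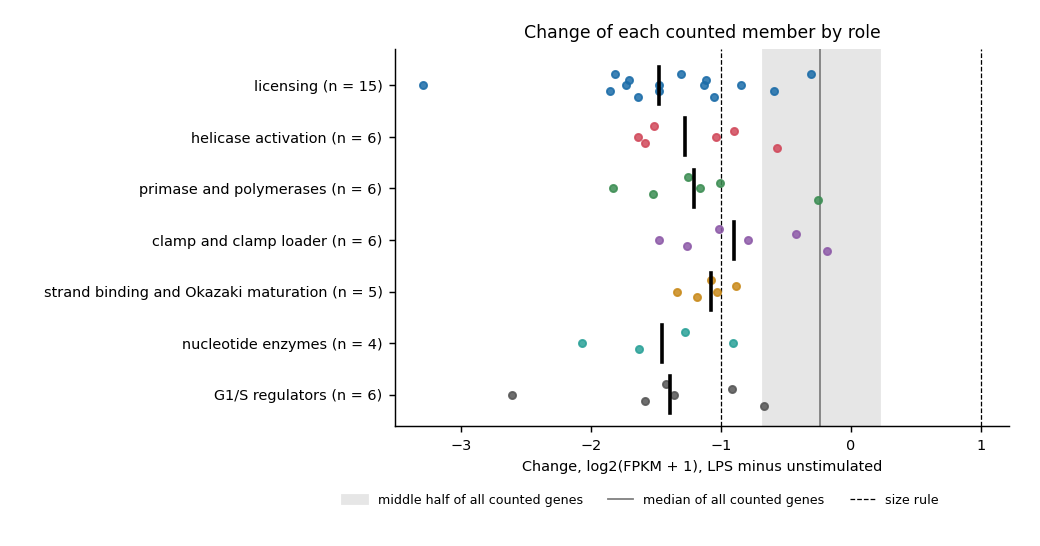
Change of each counted gene by role on the log2(FPKM + 1) scale, with the role's median as a black bar, the quartile range of all counted genes in grey and the size rule dashed. Every point is below 0, Gmnn and Ccne2 lie farthest left, and the clamp and its loader have the median nearest to 0.

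Genes of helicase activation had a median change of -1.28, with 4 of 6 called lower. With a pseudocount of 5, 2 of the 6 were called, and 3 with the libraries scaled to a median ratio of 1. Cdc45, the factor that joins the Mcm ring at firing, was at 13.3 FPKM (12.0 to 14.7) after LPS and 42.0 FPKM (39.2 to 44.8) unstimulated. The GINS complex has 4 subunits, at 2.87 (Gins3) to 27.4 FPKM (Gins2) after LPS and 10.0 (Gins3) to 57.3 FPKM (Gins2) unstimulated. Gins1 and Gins3 had ratios of 0.301 (0.256 to 0.353) and 0.285 (0.237 to 0.343), and Gins2 and Gins4 had ratios of 0.478 (0.430 to 0.531) and 0.519 (0.458 to 0.588). The intervals of the first pair lie below those of the second, and Gins4 missed the size rule at -0.90. Mcm10, a helicase activator outside the ring, changed least here: 6.56 FPKM (5.97 to 7.15) after LPS and 10.2 FPKM (9.45 to 10.9) unstimulated, a change of -0.57.

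Primase and polymerase genes had a median change of -1.21, with 5 of 6 called lower. The calls depend on the processing: 3 were lower with the libraries scaled to a median ratio of 1, 2 after quantile normalisation and 1, Prim1, with a pseudocount of 5. Prim1, the catalytic primase subunit, was at 6.91 FPKM (5.96 to 7.86) after LPS and 27.2 FPKM (25.2 to 29.1) unstimulated. Its partner Prim2 was at 9.05 FPKM (8.10 to 10.0) after LPS and 19.2 FPKM (17.8 to 20.6) unstimulated, a change of -1.01 at the edge of the rule. Prim1 was thus the lower of the 2 after LPS and the higher in unstimulated cells. Among catalytic subunits, Pola1 of polymerase alpha had a ratio of 0.234 (0.196 to 0.278), Pole of the leading-strand polymerase epsilon 0.223 (0.181 to 0.276) and Pold1 of the lagging-strand polymerase delta 0.386 (0.335 to 0.445). Pole was the rarest transcript of the counted set after LPS, at 0.663 FPKM (0.535 to 0.792), against 2.97 FPKM (2.69 to 3.25) in unstimulated cells. Pola2, the accessory subunit of polymerase alpha, cannot be placed: it was at 24.6 FPKM (2.66 to 55.6) after LPS and 29.4 FPKM (14.5 to 50.2) unstimulated, with wide intervals on both its rows.

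The clamp and its loader had a median change of -0.90, with 3 of 6 called lower. With a pseudocount of 5 or with the libraries scaled to a median ratio of 1, 1 of 6 was called, and the role with the smallest median was the clamp and loader in some settings and the polymerases in others. Pcna, the sliding clamp that tethers polymerases, was at 188 FPKM (183 to 194) after LPS and 381 FPKM (373 to 389) unstimulated. Its change of -1.01 only just met the rule, and pseudogene copies of Pcna exist, so some of its fragments may be uncertain. Rfc1, the large subunit found only in the loader of Pcna, was at 2.12 FPKM (1.84 to 2.41) after LPS and 7.66 FPKM (7.10 to 8.22) unstimulated, a ratio of 0.277 (0.238 to 0.322). The small subunits Rfc2 to Rfc5, which other clamp loaders share, stood at 14.7 to 43.3 FPKM after LPS and 36.6 to 58.2 FPKM unstimulated. Rfc4 had a ratio of 0.401 (0.354 to 0.455), Rfc5 0.568 (0.521 to 0.620), Rfc2 0.743 (0.692 to 0.799) and Rfc3 0.880 (0.797 to 0.970). Rfc3 was at 32.7 FPKM (30.3 to 35.1) after LPS and 37.2 FPKM (34.6 to 39.8) unstimulated, the smallest change of the set at -0.18. With the libraries scaled to a median ratio of 1, its change was 0.10. The FPKM of Rfc3 over that of Rfc1 was 15.4 (13.3 to 17.9) in the LPS library and 4.86 (4.40 to 5.36) in the unstimulated library.

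Genes of single-strand binding and Okazaki fragment maturation had a median change of -1.08, with 4 of 5 called lower. With a pseudocount of 5 or with the libraries scaled to a median ratio of 1, Rpa2 alone was called, and 2 of 5 were after quantile normalisation. Rpa2, the middle subunit of replication protein A, was at 20.1 FPKM (18.6 to 21.6) after LPS and 52.2 FPKM (49.7 to 54.6) unstimulated. Rpa3, the small subunit, was at 26.9 FPKM (23.6 to 30.1) after LPS and 50.3 FPKM (45.7 to 54.9) unstimulated and missed the rule at -0.88. Rpa1, the large DNA-binding subunit, was called lower, at 10.9 FPKM (2.47 to 22.6) after LPS and 26.0 FPKM (24.6 to 27.3) unstimulated, but its LPS value is imprecise and the interval of its ratio of 0.419 (0.146 to 1.20) spans 1. The flap nuclease Fen1 and the ligase Lig1, which finish lagging-strand fragments, had ratios of 0.466 (0.417 to 0.521) and 0.435 (0.381 to 0.496). Both calls were near the rule, with changes of -1.03 and -1.08.

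Of the 4 nucleotide enzymes, 3 were called lower, with a median change of -1.45. Tk1, the S-phase thymidine kinase of the salvage route, changed most, at 3.72 FPKM (2.98 to 4.46) after LPS and 18.8 FPKM (17.0 to 20.5) unstimulated, a ratio of 0.198 (0.160 to 0.246). Rrm2, the small subunit that limits ribonucleotide reductase in the cycle, was at 4.69 FPKM (4.05 to 5.34) after LPS and 16.6 FPKM (15.4 to 17.8) unstimulated. Rrm1, the large catalytic subunit, was at 12.2 FPKM (11.5 to 13.0) after LPS and 30.9 FPKM (29.7 to 32.1) unstimulated. The FPKM of Rrm2 over Rrm1 was 0.385 (0.332 to 0.445) in the LPS library and 0.537 (0.495 to 0.583) in the unstimulated library. Tyms, which makes thymidylate de novo, stood at 8.77 FPKM (8.10 to 9.43) after LPS and 17.3 FPKM (14.2 to 21.4) unstimulated, short of the rule at -0.91. A pseudogene copy of Tyms exists, so its value is less certain.

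Among the G1/S regulators, 4 of 6 counted genes were called lower, with a median change of -1.39. With a pseudocount of 5, 3 of the 6 were called. Ccne1 and Ccne2 encode the E cyclins that drive entry into S phase with Cdk2, and they changed unequally. Ccne2 was at 3.64 FPKM (3.17 to 4.12) after LPS and 27.3 FPKM (25.6 to 29.1) unstimulated, a ratio of 0.133 (0.115 to 0.154). Ccne1 was at 5.74 FPKM (4.99 to 6.49) after LPS and 17.0 FPKM (15.7 to 18.4) unstimulated, a ratio of 0.337 (0.290 to 0.391). The FPKM of Ccne2 over Ccne1 was 0.635 (0.529 to 0.761) in the LPS library and 1.604 (1.45 to 1.77) in the unstimulated library, so the more abundant E cyclin differed between the libraries. The minor Ccne2 row NM_009830 was near 0 after LPS, at 0.000105 FPKM (0 to 0.0309), against 6.77 FPKM (5.58 to 7.96) unstimulated. The Ccne2 locus shares 5622 bases with Ints8, which was at 2.83 FPKM after LPS and 3.89 FPKM unstimulated.

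The activator genes E2f1 and E2f2 were called lower and E2f3 was not. E2f1 was at 5.36 FPKM (4.72 to 6.0) after LPS and 18.0 FPKM (16.8 to 19.2) unstimulated. E2f2 was at 1.042 FPKM (0.842 to 1.24) after LPS and 4.24 FPKM (3.82 to 4.65) unstimulated. At that level its call depends on the processing. With a pseudocount of 5 the change of E2f2 was -0.61, and that of E2f1 was -1.15. E2f3 was at 2.75 FPKM (2.43 to 3.06) after LPS and 4.97 FPKM (4.54 to 5.40) unstimulated, a change of -0.67. The ratios of E2f1 (0.297, 0.260 to 0.340) and E2f2 (0.246, 0.199 to 0.304) lie below that of E2f3 (0.553, 0.481 to 0.636). E2f8, an atypical member that represses, was at 2.08 FPKM (1.75 to 2.40) after LPS and 4.80 FPKM (4.30 to 5.30) unstimulated, a change of -0.92. E2f7, a close relative of E2f8 and the gene of the 49 that was not counted, is listed at 0 (0 to 0) in both libraries. Its row has the status OK in both, and whether the transcript was absent or went undetected cannot be told apart.

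Other genes of replication and nucleotide metabolism, 98 in 8 lists, are given for context. Of the 96 counted, 39 were called lower, 2 were called higher and 55 were within the rule, beside 12.4% lower and 8.54% higher over all counted genes. Their median change was -0.80. Of 10 origin firing genes, 8 were lower and 0 higher, and 3 were lower with a pseudocount of 5. Among them the firing kinase gene Cdc7 was at 1.32 FPKM (1.03 to 1.61) after LPS and 10.2 FPKM (9.34 to 10.98) unstimulated, and the changes of Topbp1, a firing scaffold, and Ccna2, the S-phase cyclin A, were -2.15 and -1.57. In replication-coupled chromatin assembly and methylation, 5 of 7 were lower, led by the histone chaperone Asf1b (-2.28), Uhrf1 (-1.98) and the maintenance methyltransferase Dnmt1 (-1.95). Fork progression and protection had 9 of 18 lower, and 4 with a pseudocount of 5. The checkpoint mediator Clspn was at 0.771 FPKM (0.604 to 0.938) after LPS and 8.48 FPKM (7.91 to 9.05) unstimulated, and the fork factor Wdhd1 and the nuclease-helicase Dna2 changed by -2.47 and -2.10. Of 6 accessory polymerase subunits, 1 was lower, Pole2 of polymerase epsilon, at 4.68 FPKM (3.94 to 5.42) after LPS and 22.6 FPKM (20.96 to 24.3) unstimulated.

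**Figure D4:**
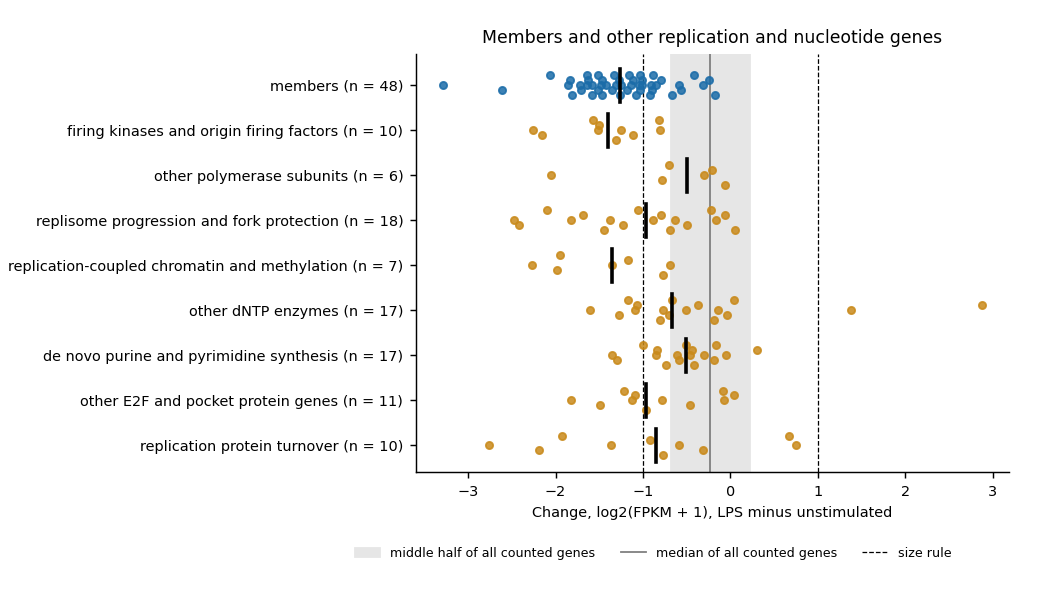
Change on the log2(FPKM + 1) scale for the 48 counted replication genes (top) and the 96 counted genes of the 8 further lists, with medians as black bars, the quartile range of all counted genes in grey and the size rule dashed. Origin firing and chromatin assembly genes have medians below -1, purine and pyrimidine synthesis lies nearer to the median of all genes, and 2 enzymes of deoxynucleotide metabolism lie above 1.

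Changes of nucleotide metabolism genes outside the 4 enzymes above lay mostly below 0. Of 17 other deoxynucleotide enzymes, 14 changed below 0, with a median of -0.67, against 64.2% and -0.24 over all counted genes. Of these 17, 5 were called lower (29.4%) and 2 higher (11.8%), beside 12.4% and 8.54% of all counted genes. The balance depends on the scaling, with 2 lower and 2 higher when the libraries were scaled to a median ratio of 1 and 8 lower and 2 higher after rescaling to TPM, and with a pseudocount of 5 only Samhd1 was called higher. Samhd1, which destroys deoxynucleoside triphosphates and is known as an interferon-induced restriction factor, was at 194 FPKM after LPS and 25.5 FPKM unstimulated, a ratio of 7.60 (7.15 to 8.08). Dck, the deoxycytidine kinase of the salvage route, was at 12.8 FPKM (12.0 to 13.7) after LPS and 4.31 FPKM (3.78 to 4.83) unstimulated. Thus 2 kinase genes of salvage moved in opposite directions, Tk1 with a ratio of 0.198 and Dck with a ratio of 2.98 (2.60 to 3.42). A further thymidine kinase gene, Tk2, named after its values were seen, was within the rule, with a ratio of 0.542 (0.465 to 0.632). The genes called lower in this list included Dctd (-1.27), which makes deoxyuridylate, and Dut (-1.18), which removes dUTP. De novo purine and pyrimidine synthesis, which also feeds RNA, had 2 of 17 lower (5 after rescaling to TPM and 0 with a pseudocount of 5), near the 12.4% of all counted genes: Prps2 (-1.35), which makes the ribose donor, and Ppat (-1.29), which commits it to purines.

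Regulators upstream and downstream of the E2F genes were lower or within the rule as reported. Of 11 counted E2F and pocket protein genes, 5 were lower (45.5%) and 0 higher, beside 12.4% and 8.54% of all counted genes. The median change of the 11 was -0.97, against -0.24 over all counted genes. The 5 included Tfdp1 (-1.82), the DNA-binding partner of E2F, Rbl2 (-1.50), a pocket protein, and E2f6 (-1.22), a repressor. The others, named after their values were seen, were Rb1 (-1.12), a pocket protein, and Lin54 (-1.09). With a pseudocount of 5, 1 of the 11 was lower, and 2 were with the libraries scaled to a median ratio of 1, after quantile normalisation, or among genes of 5 FPKM or above. Among 10 counted genes of replication protein turnover, 4 were lower (40.0%) and 0 higher (1 higher on that median scale). The median change of these 10 was -0.85, with 8 changes below 0 and 2 above. Fbxo5, an inhibitor of the ubiquitin ligase that removes geminin, was at 1.41 FPKM (1.02 to 1.80) after LPS and 15.3 FPKM (14.0 to 16.7) unstimulated, a change of -2.76. Dtl, the adaptor that targets Cdt1 for destruction, changed by -2.19, and Skp2, an F-box protein, by -1.93.

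**Figure D5:**
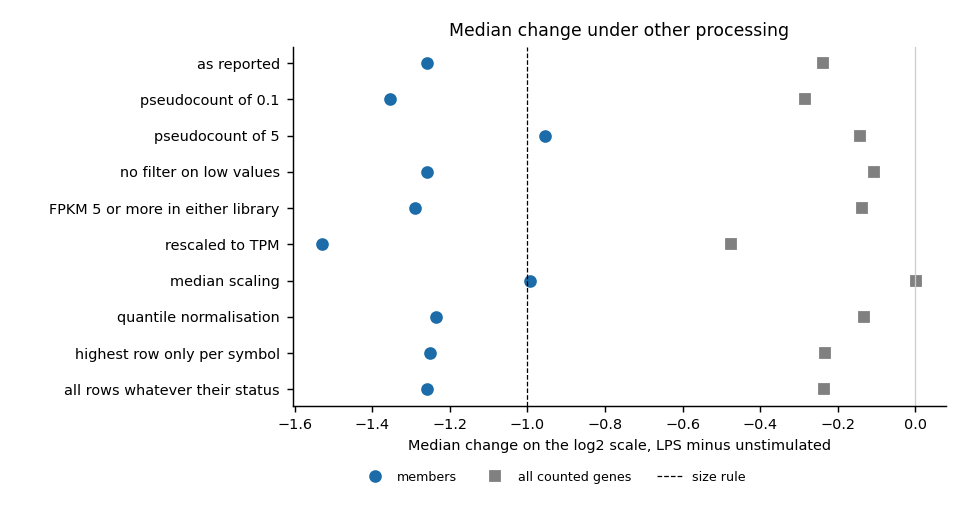
Median change of the counted replication genes (circles) and of all counted genes (squares) as reported and under 9 other ways of processing; the dashed line marks the size rule. The circles lie between -1.53 and -0.95 and stay left of the squares in each row.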

How the data were processed

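Total RNA from 2 BV2 cultures was sequenced with a strand-specific kit and 76-base reads, per the labels' protocols. The authors deposited FPKM values (fragments per kilobase of transcript, scaled to the sequenced total) with a lower and an upper bound for 28246 RefSeq transcript rows. Cufflinks and build mm9 are named in the submitters' processing notes, while the sources used here name neither the aligner nor how antisense reads were counted.

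Rows were named from a RefSeq table of GRCm38.p6, used for names and promoter sequence only, which matched 27560 rows (97.6%). Rows without status OK in both libraries (391) and small RNA rows (712) were left out, none of them of the 49 genes. Rows of a symbol were summed and half-widths added in quadrature, with Python 3.11.15 and pandas 2.3.3. Counted genes reached an FPKM of 1 in at least 1 library, and the change is log2(FPKM + 1), LPS minus unstimulated. With 1 library per group there is no test across replicates and no p-value, and calls follow a rule of size. The deposited bounds were read as 2 SD either side and cover counting and fragment assignment only. Ratios carry 95% intervals from both libraries. The calling steps were tested on simulated data.

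The genes, the lists and the size rule were chosen with earlier results of these data known. All 49 genes are named, and of each further list at most the 3 largest changes in each direction that passed the size rule with separate intervals. Of the genes this rule names, 1 is not reported here. Alternatives were pseudocounts of 0.1 and 5, other filters, 3 rescalings, the highest row per symbol, all rows, and separate intervals as a further condition.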

Additional observations from a re-analysis of the deposited data

How the results depend on the processing

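No paired analysis was possible because each group holds 1 library, and for the same reason no replicate could be left out. The cause of each shift below was not tested. The median of all counted genes moved by -0.24 on rescaling to TPM, 0.24 on median scaling and 0.11 on quantile normalisation, and the median of the replication genes lay 0.81 to 1.15 below it in each of the 10 settings. Genes of the set called lower numbered 21 with a pseudocount of 5 and 24 to 41 elsewhere, with 0 called higher throughout, and 18 were called in all 10 settings. With a pseudocount of 5, the median change was -0.95 for the set, -0.94 for helicase activation, -0.74 for polymerases, -0.82 for strand binding and maturation and -0.82 for G1/S regulators. With median scaling it was -0.99 for the set and -0.83 for strand binding and maturation. Quantile normalisation gave -0.95 for polymerases, -1.03 for the clamp and loader and -0.98 for strand binding, and TPM gave -1.15 for the clamp and loader. Over all counted genes, 2062 were lower with a pseudocount of 0.1, 354 with one of 5, 2281 after TPM and 783 after median scaling, against 1249. Lower genes made up 59.3% and higher genes 40.7% of calls as reported, 75.3% and 24.7% after TPM, 40.6% and 59.4% after median scaling, 38.1% and 61.9% with a pseudocount of 5, and lower genes made up 47.0% after quantile normalisation. The largest role median was that of licensing as reported, of polymerases with a pseudocount of 0.1 (-1.65), of G1/S regulators with the filter of 5 FPKM (-1.58) and of nucleotide enzymes after TPM (-1.73) and median scaling (-1.19). The smallest was that of the clamp and loader as reported and of polymerases with a pseudocount of 5 and after quantile normalisation. All 48 changes stayed below 0 in every setting, except that Orc3 was above 0 (0.16) with its highest row alone, and Rfc3 (0.10) and Pola2 (0.03) were above 0 after median scaling. Among genes with 1 transcript row, depth limits Orc1, Tk1, Pole and E2f2 most. They rested on 64, 100, 106 and 109 implied fragments in the LPS library.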
